A study of Rattus norvegicus with 14 samples.

Results

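The messenger RNAs (mRNAs) of the cytosolic ribosomal proteins were followed in rat hippocampal neuron and astrocyte cultures treated with allopregnanolone (Allo), a neurosteroid made from progesterone that acts on GABA-A receptors. Genes were chosen by name, as every symbol that begins with Rpl or Rps and a number, with Rplp0, Rplp1, Rplp2 and Rpsa added and the Rps6k kinases left out, and with normalized counts that averaged at least 10 in the neurons or the astrocytes. This gave 76 genes, 44 of the large subunit and 32 of the small subunit, out of 85 symbols of that form and 31789 symbols in all. All 76 were tested in neurons and 74 in astrocytes, where Rpl10l and Rps6 had means of 6.1 and 6.46. A few of them are named like ribosomal proteins without being core components, such as Rps19bp1, which encodes a protein that binds RPS19.

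The cells came from hippocampi of Sprague Dawley rat fetuses on embryonic day 18. In the study, AM is a medium with reduced supplements that models aging in culture, and every library used here came from cells in AM. It was not the same medium in both cultures. For neurons it was Neurobasal medium with less of its supplement, and for astrocytes a different base medium with charcoal-stripped serum. Neurons had 4 h of AM before 16 h with 0.001% ethanol as vehicle (AM-Veh) or with 100 nM Allo (AM-Allo), on day 10 in culture, and astrocytes, kept after the other glia were shaken off, had 24 h of AM before 24 h of the same vehicle or dose. There were 4 AM-Veh and 4 AM-Allo libraries of neurons and 3 of each of astrocytes, so the comparisons asked what Allo did on top of AM, and untreated cells were not analysed here. The labels do not say whether libraries of a group came from separate cultures or animals, so the p-values measure the spread between these libraries, which may be technical.

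The eukaryotic ribosome has a small subunit, which binds the mRNA and reads its codons, and a large subunit, which joins the amino acids and feeds the new protein into an exit tunnel. Each subunit is built from ribosomal RNA and many small proteins, most of them encoded by a single active gene alongside many processed pseudogene copies. Most of their mRNAs begin with a C followed by a run of C and T bases, the terminal oligopyrimidine (TOP) start, through which mTORC1 signaling controls their translation.

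TOP starts were looked for in promoter sequences of RefSeq (assembly GRCr8, another one than the files were made with), matched by symbol. An entry was held for 60 of the 76 genes. Among the genes with no entry were Rpl10l, Rpl15, Rpl23a, Rpl27, Rpl30, Rpl32, Rpl36al, Rpl7, Rps10l1, Rps25 and Rps29. The annotated first base was a C followed by at least 4 bases that were C or T in 16 of 35 genes of the large subunit and 6 of 25 of the small subunit, 36.7% together, against 2.63% of all 33469 promoter entries. Annotated starts can miss the main start by a few bases, so a window without this run says only that the letters do not stand at the annotated base. The windows below hold 15 bases before and 15 from the annotated start on, for genes with the largest differences in the comparisons that follow, and capitals mark the first transcribed base and, where that base is itself C or T, the C and T bases that follow it unbroken.
Rpl37, chr2:55942930-55942959, plus strand: tggtaggcgtactttCTCTTCCggtctctt
Rpl37a, chr9:81748076-81748105, plus strand: gcatgcccgttgcgtCTCTTCCTCTTCggg
Rplp1, chr8:71290858-71290887, minus strand: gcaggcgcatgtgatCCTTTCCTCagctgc
Rpl28, chr1:78083518-78083547, minus strand: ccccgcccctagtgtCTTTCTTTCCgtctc
Rpl27a, chr1:172974558-172974587, plus strand: cgagacttggtgggcTCCTCCCTCTTTCTT
Rpl21, chr12:13386139-13386168, minus strand: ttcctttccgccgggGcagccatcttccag
Rps21, chr3:187724023-187724052, plus strand: gaacgagccacttccTTTCTgtgttctccg
Rps16, chr1:92770643-92770672, plus strand: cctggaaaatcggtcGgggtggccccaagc
Rps2, chr10:14251833-14251862, plus strand: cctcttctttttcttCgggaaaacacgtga
Of these 9, Rpl37, Rpl37a, Rplp1 and Rpl28 have the full TOP start at the annotated base.

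Values were normalized counts per gene, as the authors deposited them, and their totals per library were 21985000 to 22357500 in neurons and 23783800 to 24006600 in astrocytes. Markers were summed as normalized counts over fixed lists to check the cultures. The neuron cultures held neuron markers (11 of 12 tested, 62160 to 74205 per library) together with astrocyte markers (8 of 8, 196206 to 256022) and oligodendrocyte lineage markers (8 of 8, 38365 to 45308). The astrocyte cultures held astrocyte markers (8 of 8, 234790 to 248620) together with mesenchymal markers (6 of 8, 106915 to 127174), with neuron markers (6 of 12) at 26594 to 28198 and microglia markers (11 of 11) at 1867 to 2377. Most of that neuron marker sum was Stmn2, with a mean of 21790 in AM-Veh. Map2 and Gad1 had AM-Veh means of 3873 and 1803 there, and Gap43, Tubb3 and Syt1 of only 138, 32.2 and 23.8. Of the mesenchymal list, Tagln had the highest AM-Veh mean in astrocytes, 42990, while Dcn and Lum were below the minimum. Oligodendrocyte lineage markers (6 of 8) stood at 3917 to 4359 in the astrocyte libraries. Over all libraries of a culture, the ranges of AM-Veh and AM-Allo overlapped for each of these lists. Among neuron libraries whose replicate number begins with 2, neuron markers were at 67874 and 62160 in AM-Veh and 74205 and 71462 in AM-Allo. Among those that begin with 1, oligodendrocyte lineage markers were at 42276 and 42775 against 45308 and 44614. With first number 2, mesenchymal markers of the neuron cultures were at 8830 and 9410 in AM-Veh against 7714 and 6850 in AM-Allo. The remaining comparisons of these lists within a first part overlapped, and none of this was tested. In such bulk samples, fewer cells of a type and less RNA per cell cannot be told apart. In neurons the first part of the replicate number separated the libraries, and in astrocytes the AM-Allo libraries 2 and 3 lay at opposite ends, as described with the values below.

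The ribosomal protein mRNAs were first summed as a share of the counts, and the ranges with and without Allo overlapped in both cultures. In neurons the large subunit of AM-Veh summed to 1.21% ± 0.0273 of all normalized counts and that of AM-Allo to 1.19% ± 0.0251 (SD, n = 4). The small subunit summed to 0.898% ± 0.032 in AM-Veh and 0.886% ± 0.0318 in AM-Allo (SD, n = 4). In astrocytes the large subunit stood at 1.55% ± 0.0284 in AM-Veh and 1.57% ± 0.0692 in AM-Allo (SD, n = 3). The small subunit stood there at 1.09% ± 0.0282 and 1.10% ± 0.051 (SD, n = 3). No test was made on these sums. The neuron SDs include the difference between the first numbers of the libraries, and within first numbers 1 and 2 the large subunit was at 1.19% and 1.23% in AM-Veh against 1.17% and 1.21% in AM-Allo, and the small subunit at 0.872% and 0.924% against 0.860% and 0.911%. These means of 2 libraries each were lower with Allo in both sets, without overlap for first number 1 and with overlap for first number 2. Within the AM-Allo astrocytes the libraries spread further than within AM-Veh, with the large subunit at 1.55%, 1.64% and 1.51% in libraries 1, 2 and 3, the highest and the lowest of the 6. The neuron libraries with first number 2 lay above those with first number 1 in both subunits, in AM-Veh and in AM-Allo alike.

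**Figure D1:**
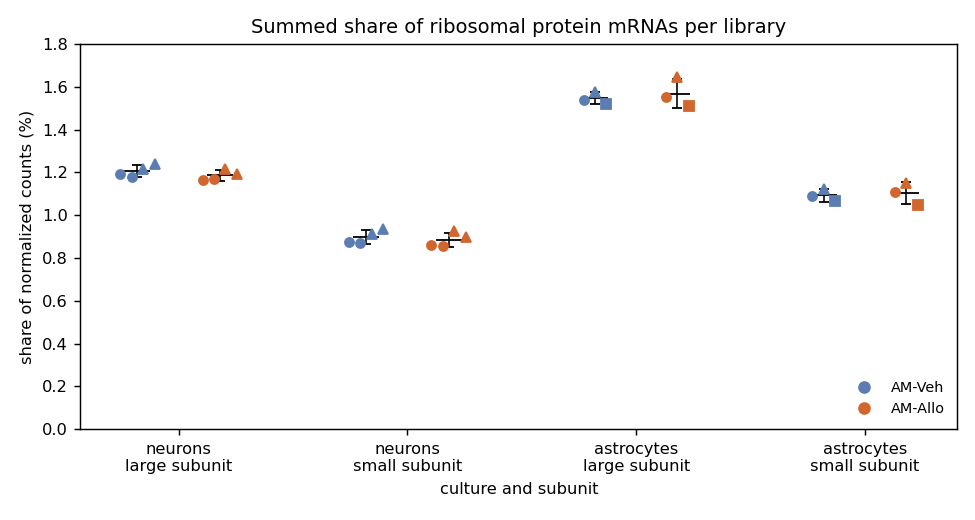
Summed share of normalized counts (%) taken by the ribosomal protein mRNAs of each subunit, one point per library, for AM-Veh (blue) and AM-Allo (orange); black bars are the mean ± SD, circles and triangles are neuron libraries with first number 1 and 2, and circles, triangles and squares are astrocyte replicates 1, 2 and 3. The points of AM-Veh and AM-Allo overlap in all 4 pairs, from 1.16% to 1.24% for the large subunit in neurons and from 1.51% to 1.64% in astrocytes.

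Allo was next compared with vehicle gene by gene in the astrocytes, and here a minority of the genes stood apart while each subunit as a whole was centred on 0. Of the 74 genes tested, 38 lay above 0 and 36 below, with a median log2 difference of −0.00019 for the large and 0.0085 for the small subunit, against 0.0014 for all 15380 genes tested. At an unadjusted p under 0.05, 15 genes were higher in AM-Allo, 7 of the large and 8 of the small subunit, where 3.72% of all genes tested were, and 1 was lower, where 3.29% were (7.01% in either direction). The 2 groups did not overlap for 11 genes that were higher and 1 that was lower, against 6.42% and 6.07% of all genes. After adjustment for all genes tested (Benjamini-Hochberg), 0 of the 74 passed in limma, and the smallest adjusted p was 0.0961. Without AM-Allo library 1, 4 of the 74 passed, Rpl37, Rpl37a, Rps21 and Rps10l1, among 72 of all genes. The exact permutation test cannot go below p = 0.1 with 3 against 3, and 12 genes reached that value.

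Rpl37, which encodes a zinc-binding protein of the large subunit, had the largest difference in the family as chosen by name. Its normalized counts were 363, 370 and 389 in the AM-Veh libraries and 474, 764 and 651 in the AM-Allo libraries. All 3 AM-Allo values lay above all 3 AM-Veh values, and the log2 difference was 0.72 (SE 0.13, limma adjusted p = 0.161). Rpl37a, which encodes another zinc-binding protein of the large subunit, stood at 3666, 3529 and 3869 in AM-Veh and at 4091, 6056 and 5705 in AM-Allo. AM-Allo library 1 was again the lowest of its group and still above every AM-Veh library, with a log2 difference of 0.50 (SE 0.10, limma adjusted p = 0.241). Rps21, of the small subunit, had 769, 726 and 794 in AM-Veh and 995, 1296 and 1017 in AM-Allo. The groups were apart here too, with a log2 difference of 0.52 (SE 0.085) and the lowest adjusted p of the family, limma adjusted p = 0.0961.

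Rps10l1, a gene named for its likeness to Rps10 and listed as a pseudogene in RefSeq, had 1095, 1294 and 1174 in AM-Veh and 1390, 1644 and 1606 in AM-Allo. Its log2 difference was 0.38 (SE 0.071, limma adjusted p = 0.17), whereas Rps10 itself, of the small subunit, had 1458, 1565 and 1480 in AM-Veh and 1464, 1617 and 1356 in AM-Allo, a log2 difference of −0.024 (95% confidence interval −0.15 to 0.11). Salmon shares reads between transcripts of near-identical sequence, so the division between Rps10 and Rps10l1 is uncertain. The same holds more widely, since 72 of the 76 genes have at least 1 RefSeq entry named as their pseudogene, 818 in all, with 5 for Rpl37, 13 for Rpl37a and 9 for Rps21.

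The other differences were below 0.25 on the log2 scale. Rplp1, which with Rplp2 forms the acidic dimers of the P stalk that recruit the elongation factors, had 13630, 14110 and 14148 in AM-Veh and 15375, 16309 and 15439 in AM-Allo, a log2 difference of 0.17 (SE 0.035, limma adjusted p = 0.241). Its partner Rplp2 went the other way, at 940, 910 and 922 against 890, 914 and 667, with a log2 difference of −0.18 that did not pass the threshold and rested on AM-Allo library 3, since it was −0.035 without it. Rplp0, the protein that anchors the stalk, was at −0.0023 (95% confidence interval −0.076 to 0.071). Rps16, whose tail contacts the transfer RNA in the P site, had 13140, 13101 and 11810 in AM-Veh and 14129, 15821 and 14099 in AM-Allo (log2 difference 0.21, SE 0.051). Rps28, which lies near the exit of the mRNA, differed by the same 0.21, but AM-Allo library 3 (3046) lay below AM-Veh library 2 (3086). Rps23, at the decoding centre, was 0.17 higher with no overlap, at 7844 to 8026 in AM-Veh and 8487 to 9277 in AM-Allo. Rpl36 was 0.17, Rpl28 0.15, Rpl15 0.13, Rps13 0.11, Rps29 0.11 and Rpl13a 0.10 higher on the same scale. Rps27l, the paralog of Rps27 that p53 induces, was 0.17 higher and rested on AM-Allo library 3 (1177, against 958 and 956 in the other AM-Allo libraries and 894 to 927 in AM-Veh), since the difference was 0.068 without it. Rps27 was at −0.015 (95% confidence interval −0.14 to 0.11). Rpl21, of the large subunit, was the one gene of the family that was lower at the threshold. It had 8183, 8280 and 7896 in AM-Veh and 7645, 7628 and 6853 in AM-Allo (log2 difference −0.14, SE 0.044, limma adjusted p = 0.514).

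**Figure D2:**
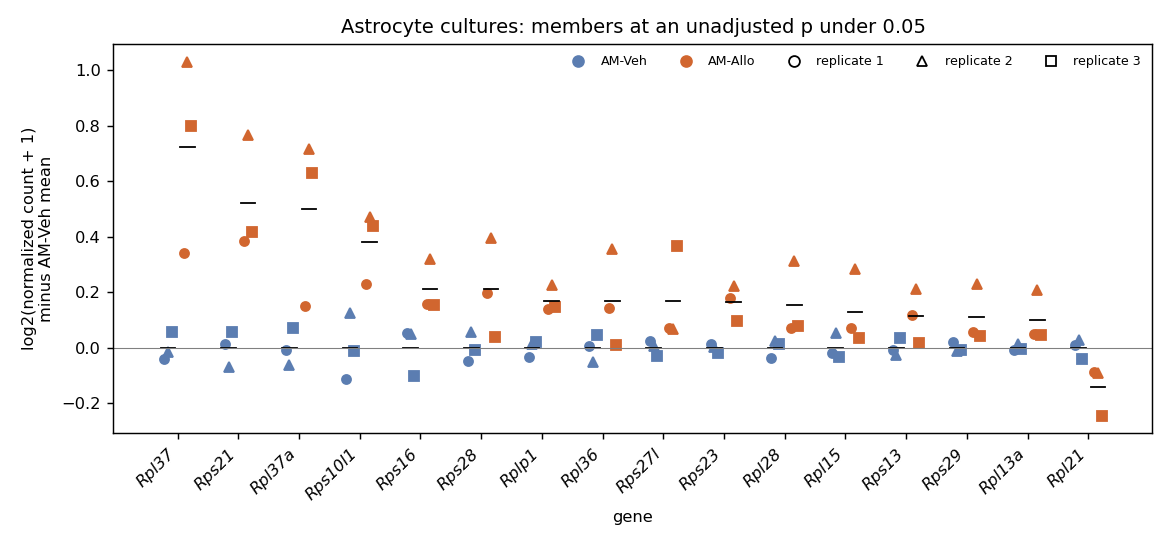
Log2(normalized count + 1) of each astrocyte library minus the AM-Veh mean for the 16 ribosomal protein genes at an unadjusted p under 0.05, with AM-Veh in blue, AM-Allo in orange, the replicate by symbol and the group mean as a black line. AM-Allo replicate 2 (orange triangles) is the highest library in 14 of the 15 genes that were higher, and Rpl21 is the 1 gene lower in AM-Allo.

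AM-Allo library 2 was the highest of the 6 libraries in 14 of the 15 genes that were higher. Without it 9 genes were higher and 5 lower at the same threshold, and Rpl36, Rpl28, Rpl15, Rps13, Rps29 and Rpl13a no longer passed it, while Rpl37 kept a log2 difference of 0.57, Rpl37a 0.39 and Rps21 0.40. The count of higher genes was also 9 without AM-Veh library 1, and the count of lower genes was 4 without AM-Allo library 1 and 2 without AM-Veh library 3 or AM-Allo library 3. Of the 15 higher genes, 8 passed the threshold whichever single library was left out, namely Rpl37, Rpl37a, Rplp1, Rps10l1, Rps16, Rps21, Rps23 and Rps28. With upper-quartile scaling, which moved the median of all genes to −0.013, 12 genes were higher and 1 lower, and the share of all genes past the threshold that were higher went from 53.1% to 39.0%. Of the 16 genes past the threshold, 15 are among the 21 genes of the EIF2 signaling pathway that the study drew up from these same libraries, which is no independent evidence of their direction. That list also holds genes the study assigns to Rps3a, Rpl30 and Rpl12 under symbols that begin with LOC, outside the family as chosen by name. Their log2 differences were 1.42, 0.14 and −0.089, each past the unadjusted threshold and none past the adjustment. Among the 58 genes of the family that did not pass the threshold, 53 had a 95% confidence interval that lay within 0.2 of 0 on the log2 scale. Of the 8 astrocyte markers, 7 lay below 0 (median −0.025), with Slc1a2 at −0.36 and S100b at −0.088 past the unadjusted threshold, and their part in these differences was not tested.

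In neurons the pattern was a small shift of most of the family below 0, within the spread of the libraries, with few genes that stood out. Of the 76 genes, 65 lay below 0 and 11 above, 37 of 44 below in the large and 28 of 32 in the small subunit, whereas 50.8% of the 15314 genes tested lay below. The median log2 difference was −0.025 in each subunit against −0.0015 for all genes. Per library, the large subunit median relative to the AM-Veh mean ran from −0.038 to 0.045 in AM-Veh and −0.057 to 0.0074 in AM-Allo. For the small subunit it ran from −0.038 to 0.057 and from −0.074 to 0.018, so the groups overlapped in both. The genes share libraries and are not independent replicates, and the shift was not tested. At an unadjusted p under 0.05, 2 genes were lower and 0 higher, where 2.48% of all genes tested were lower, 3.21% higher and 5.69% either. The groups did not overlap for 3 genes that were lower (Rpl37, Rpl15 and Rpl26, the last 2 named after their values were seen) and 0 that were higher, against 1.89% and 2.06% of all genes. After adjustment over all genes tested 0 of the 76 passed in limma, with the smallest adjusted p at 0.761. Beside this, 5 of the 11 neuron markers tested passed the unadjusted threshold, Tubb3 (0.21), Slc17a7 (0.29) and Map2 (0.10) higher and Gad2 (−0.45) and Nefl (−0.23) lower on the log2 scale, while 7 of 8 astrocyte markers lay below 0 (median −0.037) with none past the threshold. Of the oligodendrocyte lineage markers 7 of 8 lay above 0 (median 0.070) and of the proliferation genes 10 of 11 (median 0.078), none of them past the threshold. The part of these lists in the shift was not tested.

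Rpl37 was the gene with the largest difference here too, in the opposite direction to the astrocytes. Its neuron values were 278, 273, 306 and 271 normalized counts in AM-Veh libraries 1-1, 1-2, 2-1 and 2-2, and 250, 244, 247 and 252 in the AM-Allo libraries of the same numbers. All AM-Allo values lay below all AM-Veh values, with a log2 difference of −0.18 (SE 0.066, limma adjusted p = 0.761), and the exact permutation test gave p = 0.0286, the smallest that 4 against 4 allow. Without AM-Veh library 2-1 the difference was −0.14 and no longer passed the unadjusted threshold. Rpl27a, of the large subunit, had 7352, 7186, 7542 and 7671 in AM-Veh and 6620, 6627, 7471 and 7082 in AM-Allo. Its groups overlapped through AM-Allo library 2-1, and the log2 difference was −0.099 (SE 0.043, limma adjusted p = 0.845), a call that was lost without any 1 of 5 libraries (AM-Veh 1-1, 2-1 or 2-2, AM-Allo 1-1 or 1-2). The count of 2 lower genes was 0 without AM-Veh library 2-1, 1 without AM-Veh 1-1, AM-Veh 2-2, AM-Allo 1-1 or AM-Allo 1-2, 4 without AM-Allo 2-1 and 5 without AM-Veh 1-2.

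The libraries of neurons were then compared within each first number, since AM-Veh and AM-Allo libraries with the same first number deviated together. Within first number 1, 56 of the 76 genes lay below 0, with a median of −0.024, and within first number 2, 65 did, with a median of −0.035. Both differences were below 0 for 48 genes, 63.2% of the family against 27.0% of all genes tested, and both were above 0 for 3 genes, 3.95% against 25.3%. With the first number as a block, 6 genes were lower and 0 higher at an unadjusted p under 0.05, where 5.24% of all genes tested were lower and 11.0% passed in either direction. These were Rpl37, Rpl27a, Rpl22l1, Rpl26, Rpl15 and Rps16, at log2 differences of −0.18, −0.099, −0.12, −0.052, −0.048 and −0.059. The lowest adjusted p among them was that of Rpl27a, limma adjusted p = 0.116, so 0 passed the adjustment. Among the 74 genes that did not pass without a block, 65 had a 95% confidence interval within 0.2 of 0.

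**Figure D3:**
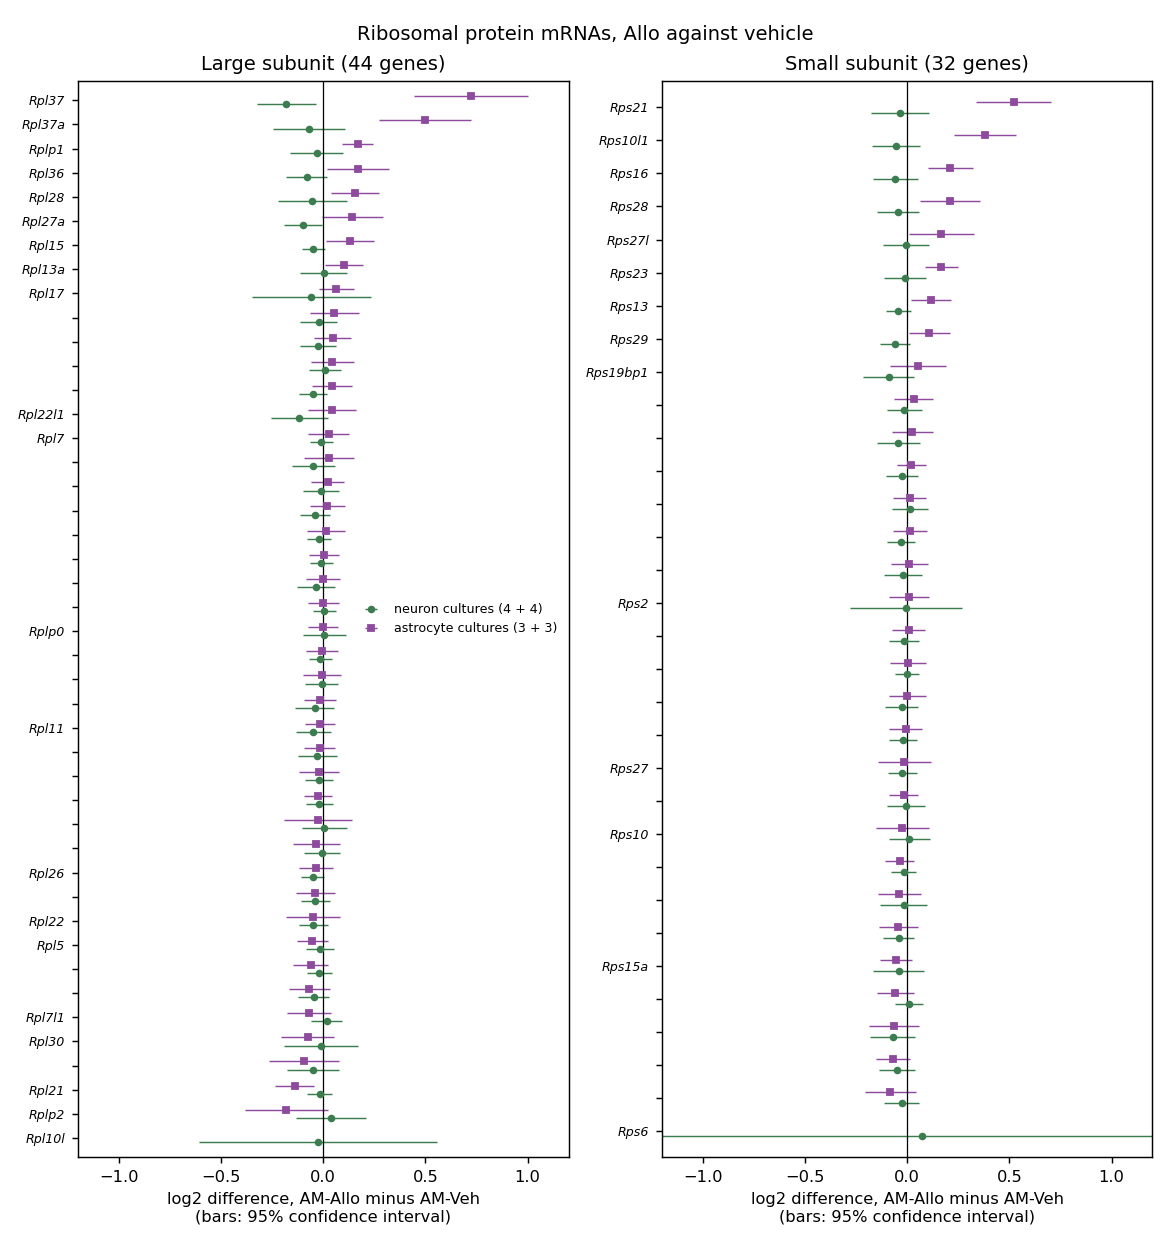
Log2 difference (AM-Allo minus AM-Veh) with its 95% confidence interval for the 44 genes of the large and 32 of the small subunit, in neuron cultures (green circles) and astrocyte cultures (purple squares), ordered by the astrocyte value, with the genes the text describes labelled; the interval of Rps6 in neurons, −2.33 to 2.48, runs past the axis, and Rpl10l and Rps6 were not tested in astrocytes. Astrocyte values run from −0.18 (Rplp2) to 0.72 (Rpl37), and in neurons 65 of 76 lie below 0.

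The P stalk and the 5S particle, the complex of RPL5 and RPL11 with 5S ribosomal RNA that also binds MDM2, held no gene past the threshold in neurons. Rplp0, Rplp1 and Rplp2 had log2 differences of 0.0061, −0.032 and 0.038, and Rpl5 and Rpl11 of −0.015 and −0.048, with limma adjusted p of 0.978 to 0.998. In astrocytes Rpl5 and Rpl11 were at −0.053 (95% confidence interval −0.13 to 0.021) and −0.016 (−0.091 to 0.059). The paralog pairs were followed as well, since a paralog can stand in for its partner in some ribosomes. Rpl22l1 was at −0.12 and its partner Rpl22, a protein of the large subunit, at −0.049 in neurons, and at 0.043 and −0.05 in astrocytes, of which the blocked neuron value of Rpl22l1 passed an unadjusted p under 0.05 and none did without a block. Rpl7l1 was at 0.018 and Rpl7 at −0.0094 in neurons, and at −0.07 and 0.027 in astrocytes. Rpl10l, a copy of Rpl10 known from testis, had 16 to 32.3 normalized counts in the neuron libraries and 3.31 to 9.77 in the astrocyte libraries.

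Set side by side, Rpl37 had the largest difference of the family in both cultures, with opposite signs. Of the 16 genes past the threshold in astrocytes, 15 had a neuron value below 0, close to the 65 of 76 genes (85.5%) of the whole family that did. Across the 74 genes tested in both, the log2 differences had Pearson's r = −0.55 and Spearman's rho = −0.33, and r was −0.31 without Rpl37 and Rpl37a, a pair left out after its values were seen. Across all 14385 genes tested in both cultures r was −0.078. These correlations run across genes, which share libraries and are not independent replicates. Rpl37a was at −0.069 in neurons (95% confidence interval −0.25 to 0.11) and Rps21 at −0.034 (−0.17 to 0.11). The tables of the cultures were normalized separately, the AM media differed and the treatments lasted 16 h and 24 h, so the difference between the cultures was not tested.

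**Figure D4:**
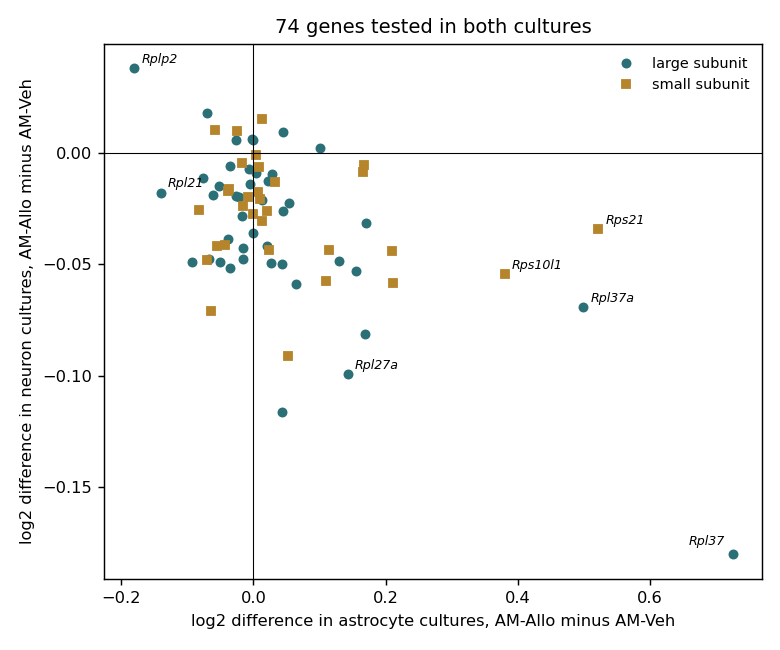
Log2 difference, AM-Allo minus AM-Veh, in astrocyte cultures (x axis) and neuron cultures (y axis, on a finer scale) for the 74 ribosomal protein genes tested in both, with large subunit genes as circles and small subunit genes as squares. Rpl37 lies alone at 0.72 in astrocytes and −0.18 in neurons, and Rpl37a, Rps21 and Rps10l1 lie far right with neuron values of −0.069, −0.034 and −0.054.

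Within the neurons, the largest differences in the family lay between libraries with different first numbers. The labels number neuron libraries in 2 parts and do not say what the first part stands for. With treatment in the model, 28 of the 76 genes were higher and 1 was lower in libraries with first number 2 at an adjusted p under 0.05 in limma, where 9.61% of all genes tested were higher, 7.61% lower and 17.2% either. The 28 were 14 genes of each subunit, and the median log2 difference was 0.062 in the large and 0.081 in the small subunit, against −0.0026 for all genes. The 28 became 16 with quantile normalization and 7 without the trend of variance on expression. Leaving out AM-Allo 1-1 gave 18 higher genes, and leaving out AM-Allo 2-1 gave 2 lower genes.

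Rps2, a protein at the mRNA entry of the small subunit, had 16959 and 16937 in AM-Veh libraries 1-1 and 1-2 and 22223 and 22357 in 2-1 and 2-2. In AM-Allo it had 16864 and 17019 against 22466 and 21755. The 4 libraries of first number 2 lay far above the other 4 whatever the treatment, with a log2 difference of 0.39 (SE 0.020, limma adjusted p = 7.07e-09), and the Allo difference of Rps2 was −0.0062. Rpl17, which lines the exit tunnel, stood at 3177, 2919, 2922 and 2916 with first number 1 and at 4076, 4018, 3820 and 3964 with first number 2 (log2 difference 0.41, SE 0.030, limma adjusted p = 1.74e-07). Rpl28 was 0.23, Rps15a 0.14 and Rps16 0.12 higher with first number 2, and of the P stalk Rplp1 was 0.17 and Rplp0 0.13 higher. Rpl30 was the 1 gene that was lower, at 1433, 1314, 1447 and 1460 with first number 1 and 1243, 1280, 1192 and 1152 with first number 2 (log2 difference −0.22, limma adjusted p = 0.00319). Rpl11 was at −0.077 (adjusted p = 0.0689) and Rpl10l at 0.62 (adjusted p = 0.0552), neither past the threshold. Rpl37, which carried the largest Allo difference, differed by 0.039 between the first numbers (adjusted p = 0.763), and Rpl27a by 0.10 (adjusted p = 0.0135).

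**Figure D5:**
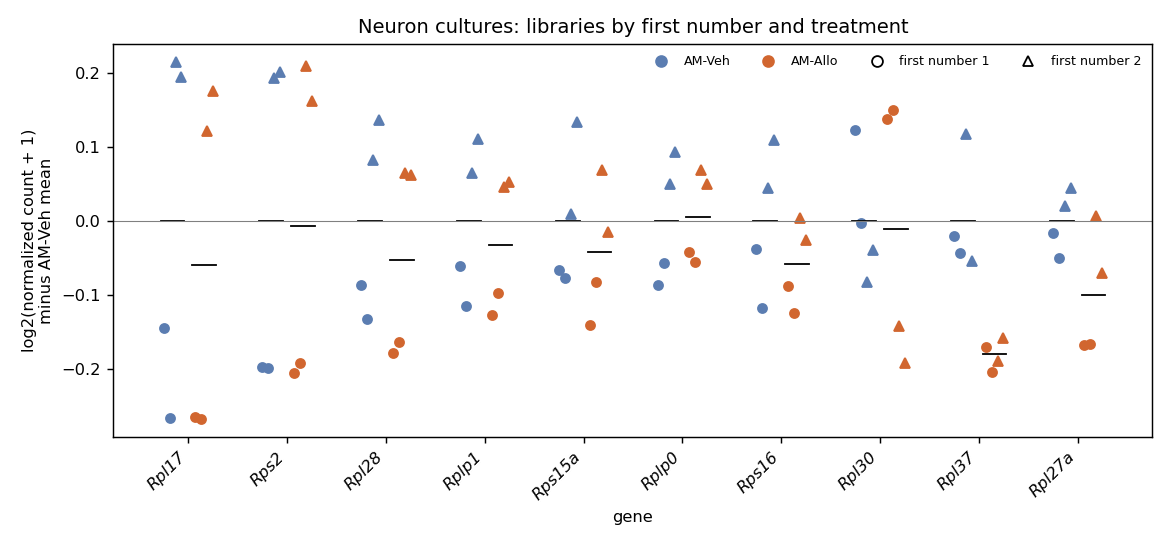
Log2(normalized count + 1) of each neuron library minus the AM-Veh mean for 8 genes that differed between first numbers (Rpl17, Rps2, Rpl28, Rplp1, Rps15a, Rplp0, Rps16 and Rpl30) and for Rpl37 and Rpl27a, with AM-Veh in blue, AM-Allo in orange, circles for first number 1, triangles for first number 2 and black lines for group means. Triangles lie above circles for Rps2 and Rpl17 in both treatments (log2 differences 0.39 and 0.41), below them for Rpl30 (−0.22), and the orange points of Rpl37 lie below its blue points.

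Levels were also set between the cultures, in AM-Veh libraries and as counts per library scaled to an equal total (CPM). The tables were normalized separately and list different numbers of genes, and the AM media of the cultures differed, so no test was made. Of 43 large subunit genes, 36 were higher in astrocytes with no overlap between the libraries and 1 lower, with a median log2 ratio of astrocytes to neurons of 0.30. Of 31 small subunit genes, 20 were higher and 3 lower, with a median of 0.20. Of all 14385 genes tested in both cultures, 34.6% were higher and 44.5% lower in astrocytes with no overlap, and their median was −0.10. Rps27 stood at 171 ± 4.12 CPM in neurons (SD, n = 4) and 349 ± 23.0 in astrocytes (SD, n = 3), while its paralog Rps27l stood at 69.5 ± 4.28 and 38.2 ± 0.767. The small subunit genes that were lower in astrocytes were Rps27l, Rps2 and Rps19bp1, and the large subunit gene was Rpl7l1. Levels of different genes were not compared, since no transcript lengths were used here.

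A few symbols had values far below those of the family. Rps6, whose protein is the known target of the Rps6k kinases, had 1.78 to 21.5 normalized counts in 7 neuron libraries, 105 in AM-Allo library 1-2, and 3.18 to 15.4 in the astrocyte libraries. Rpl35a and Rps20 were listed at 0 in all 6 astrocyte libraries, Rpl13 at 0 to 0.915 and Rpl8 at 0.85 to 1.08. None of these 4 was listed among the neuron values. Every ribosome is known to hold these proteins, so the values are given only as listed. Rpl39l, Rpl3l, Rps15al4 and Rps4y2 were below the minimum in both cultures and Rpl30l1 in astrocytes.

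Genes that work with the ribosome were followed as fixed lists. In neurons they lay below 0 like the ribosomal protein genes: all 11 elongation and release factors (median −0.049), 13 of 14 other TOP mRNAs (−0.05) and 57 of 82 ribosome biogenesis genes (−0.034). Some genes are on more than 1 list, and the 3 lists together hold 101 genes tested, of which 75 lay below 0, where 50.8% of all genes did. At an unadjusted p under 0.05, 1, 2 and 5 genes of the lists were lower and 0 higher, which are 6 different genes because Eef1b2 and Npm1 each count on 2 lists, against 2.48% of all genes tested that were lower. None passed the adjustment. Eef1b2, a subunit of the exchange factor that recharges elongation factor 1, had means of 3941 in AM-Veh and 3728 in AM-Allo. Among the biogenesis genes, Gar1, of the small nucleolar particles that guide pseudouridylation, was at −0.29, Nop58, of those that guide methylation, at −0.14, and Wdr75, a processing factor of the small subunit, at −0.12. Of the regulators of ribosomal protein mRNAs, Rheb, the GTPase that activates mTORC1, was at −0.085 and Tsc1, its inhibitor, at 0.13, the 2 of 21 tested that passed the unadjusted threshold, where 5.69% of all genes did. In astrocytes the biogenesis genes divided into 44 above and 38 below 0. At the unadjusted threshold 1 of the 82 was higher, Nle1 at 0.29, and 1 lower, Nol6 at −0.16, both of them assembly factors. Among all genes 3.72% were higher and 3.29% lower. Eif5a was the 1 of 11 elongation and release factors that passed, at 0.085, and Myc, a known activator of ribosome production, the 1 of 21 regulators, at 0.25, from 392 to 468 normalized counts, where 7.01% of all genes tested passed. None of these 4 genes passed the adjustment (limma adjusted p of 0.524 to 0.709). Of the ribosomal proteins with other symbols, Fau was at 0.0074 and Rack1 at −0.015 in neurons, and at 0.057 and 0.0078 in astrocytes, neither past the threshold.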

How the data were processed

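The authors made poly(A) stranded libraries, quantified rat transcripts with Salmon (0.14) and normalized gene counts with DESeq2 (1.18.1). The tables hold this normalized signal, which the authors deposited per gene symbol, and variance-stabilized (VST) values on a log2 scale, which the authors also deposited. Whole reads were not recovered, so no count model was used and depth is unknown. There were 0 unused columns.

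The test used log2(normalized count + 1) and genes that averaged at least 10 in a culture in limma 3.58.1 (lmFit, eBayes with trend) in R 4.3.3, AM-Allo against AM-Veh within each culture and first number 2 against 1 in neurons with treatment as a covariate. P-values were adjusted by Benjamini-Hochberg over all genes tested. Mean log2 values of single genes were also compared by an exact permutation test (two-sided). The fit was tested on simulated data. In neurons, same-numbered AM-Veh and AM-Allo libraries deviated together over genes (r = 0.296, 0.229, 0.265 and 0.273). Differently numbered ones that share the first number did so too (r = 0.185, 0.236, 0.211 and 0.196). Pairs across first numbers had r from −0.319 to −0.150. Values with the first number as a block therefore stand beside the results they change. In astrocytes same-numbered libraries did not deviate together (r = 0.024, −0.007 and 0.012).

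The alternatives were other pseudocounts, filters and scalings, VST values, fits without the trend, robust or blocked by replicate, and each library left out. Named genes were the largest differences per subunit at an unadjusted p under 0.05 (5 in each direction, 3 for the first-number comparison), the P stalk, the 5S particle and paralog pairs, with others given as values or marked. The genes and lists were chosen with earlier results of these data known. A few single genes are not reported here by name. Host genes of small nucleolar RNAs and levels per length could not be given.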

Additional observations from a re-analysis of the deposited data

Results flagged for a closer look

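Rpl37 differed in opposite directions in the 2 cultures, at a log2 difference of 0.72 in astrocytes and −0.18 in neurons, with no overlap between AM-Veh and AM-Allo in either. The difference between the cultures was not tested.

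In the neuron groups of 4 libraries, the highest or lowest library was looked at for 60 pairs of a gene and a group or a share and a group, and 4 had a gap to the next library that took more of the group's range than Dixon's test allows at 95%. The chance rate of about 1 in 20 such gaps does not apply here, because the genes were not drawn at random. Some, such as Rps2 and Rpl17, were included for their difference between first numbers. That difference splits each group and leaves little room for a gap at 1 library. Rps6 was added to the named genes. The count of 4 therefore says nothing about an excess of such gaps. Rps6 had 105 normalized counts in AM-Allo 1-2, with the other AM-Allo libraries at 1.83 to 5.6. It reached the minimum mean in neurons only through this library, and 75 genes of the family were tested without AM-Allo 1-2. Rps10l1 had 993 in AM-Veh 1-1, below 1108 to 1126 in the others. Rpl36al had 4017 in AM-Veh 2-2, above 3735 to 3778. Rpl39 had 3310.0 in AM-Allo 2-2, above 3165 to 3182.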

How the results depend on the processing

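In neurons the 2 genes lower with Allo at an unadjusted p under 0.05 became 13 in VST values. Among all genes 2204 passed there in either direction, against 872 in the main fit. Those VST values hold no difference between first numbers, so their spread leaves it out. The 2 lower genes became 1 with quantile normalization and 1 without the trend, and 0 to 5 with 1 library left out. They became 6 with a replicate block by the whole number and 6 with one by the first number. Among all genes 1634 and 1684 passed with these blocks in either direction, and no gene of the family passed the adjustment in these paired fits. In astrocytes the 15 higher genes became 7 and the 1 lower gene 0 without the trend, and 9 to 16 and 1 to 5 with 1 library left out. With a replicate block in astrocytes, whose numbers did not pair the libraries, 16 were higher and 3 lower, where 1102 of all genes passed in either direction. With that block 3 genes (Rpl37, Rps10l1 and Rps21) passed the adjustment, among 17 of all genes, against 1 of all genes in the main fit. The 28 genes higher with first number 2 became 16 with quantile normalization, 7 without the trend and 18 to 27 with 1 library left out, and the 1 lower gene became 2 with quantile normalization and 1 to 2 with 1 library left out. Both became 0 in the VST values of neurons, in which the means of the 2 first numbers were equal within 0.001 for all 18239 genes, so that table cannot show this difference. Leaving mitochondrial genes out of the total raised the summed shares in neurons to 1.28% and 1.26% (large) and 0.954% and 0.940% (small). Pseudocounts of 0.5 and 4, no filter, a minimum mean of 50, the robust fit and scaling to the library total kept these counts of Allo calls within 1.5 times. Comparisons with transcript or coding length were not run.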
